A study of Mus musculus with 15 samples.

Results

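The 10 genes described here were the regulators and markers of radial glia Pax6, Sox2, Gli3, Hes1, Hes5, Vim, Nes, Fabp7, Slc1a3 and Hopx, chosen by name from 53337 genes with a transcript in the table. They were followed in mRNA-seq of the dorsal forebrain of C57BL/6J mice at embryonic day 18, from dams that carried a pump with arginine vasopressin (AVP), used to model preeclampsia, or with saline. Of the 15 libraries, 4 were from AVP-exposed males and 4 from males of saline dams, 3 from AVP-exposed females and 4 from females of saline dams. All groups shared strain, tissue and age, no allele was altered, and libraries are named here by group and by the number in their title. The labels speak of 16 samples from 8 litters. Per the study, the embryos of a group came from separate litters, but which male and female of a treatment were litter mates is not tied to the libraries, so fits over both sexes could not take litter into account, and p-values measure the spread between libraries. On GRCm38, the annotation places Pax6 at chr2:105668900-105697364, Sox2 at chr3:34650405-34652461, Gli3 at chr13:15463235-15730026, Hes1 at chr16:30064384-30067796, Hes5 at chr4:154960923-154962371, Vim at chr2:13573927-13582826, Nes at chr3:87971078-87980451 and Fabp7 at chr10:57784881-57788450 on the plus strand, and Slc1a3 at chr15:8634124-8710764 and Hopx at chr5:77086988-77115121 on the minus strand. Levels are in TPM (transcript abundance), a unit corrected for transcript length and scaled to the same total in every library.

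Radial glia are the neural stem cells of the developing cortex. Their cell bodies line the ventricle, their long processes reach the pial surface, and they give rise to intermediate progenitors, neurons and, late in gestation, astrocytes and ependymal cells. Notch signalling from neighbouring cells keeps them as progenitors through the repressors Hes1 and Hes5, while Pax6, Sox2 and Gli3 set their dorsal, self-renewing identity. Vimentin and nestin form their intermediate filaments, and Fabp7 and Slc1a3 mark their glial character.

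Sequences before the RefSeq start sites of 3 genes are shown. These are Hes5, the Notch target with matches to the motif of the Notch effector RBPJ, and Nes and Gli3. The last 2 were those of the 10 genes whose AVP and saline libraries did not overlap in females. Neither passed the adjusted threshold. The whole Gli3 sequence and the end of the Nes sequence lie inside the genes as placed above, since that annotation starts both genes further upstream. Each run is the 250 bases before the RefSeq start site on the plus strand of GRCm38.p6, read 5′ to 3′, and capitals mark matches on either strand to the motifs searched.
Hes5, chr4:154960673-154960922: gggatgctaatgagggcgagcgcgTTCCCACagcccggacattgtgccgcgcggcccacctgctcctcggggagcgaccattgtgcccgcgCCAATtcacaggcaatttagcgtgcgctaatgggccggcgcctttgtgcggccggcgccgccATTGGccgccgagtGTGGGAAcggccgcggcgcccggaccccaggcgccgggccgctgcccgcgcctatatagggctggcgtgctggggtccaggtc
Nes, chr3:87970843-87971092: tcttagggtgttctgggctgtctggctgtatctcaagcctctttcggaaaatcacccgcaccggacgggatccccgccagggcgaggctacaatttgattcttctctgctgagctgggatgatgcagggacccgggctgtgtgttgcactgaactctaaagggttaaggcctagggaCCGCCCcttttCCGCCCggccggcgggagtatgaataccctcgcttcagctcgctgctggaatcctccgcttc
Gli3, chr13:15463473-15463722: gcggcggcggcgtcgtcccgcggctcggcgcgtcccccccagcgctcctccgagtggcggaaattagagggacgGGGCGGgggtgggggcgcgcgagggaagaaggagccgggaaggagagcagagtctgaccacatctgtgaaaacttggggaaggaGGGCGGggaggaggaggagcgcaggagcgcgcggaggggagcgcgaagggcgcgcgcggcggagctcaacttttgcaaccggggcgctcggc
The motifs were GTGGGAA (RBPJ), CACNAG (the N box bound by Hes proteins), GGGCGG (GC box), CCAAT and TATAAA, searched in windows that ran on to 50 bases after the start, and no marked matches overlap. RBPJ letters stood in 6.38% of 32851 RefSeq promoter windows, and of the 9 genes with a window (Hes1 is named only) Hes5 alone held them, at bases -226 to -220 on the minus strand and -83 to -77 on the plus strand. Nes held 2 GC boxes, both on the minus strand, and Gli3 held 2 on the plus strand, where 35.7% of all windows held at least 1. Sox2 and Slc1a3 held GC boxes as well. CCAAT stood in windows of 7 of the genes against 37.4% of all windows, CACNAG in 5 against 42.5%, and TATAAA in those of Vim and Slc1a3 against 13.6%. These matches describe letters and not binding.

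Dissection and labels were checked first. All 8 dorsal forebrain markers were expressed in each group, with a summed level of 917 to 1332 TPM over the libraries, whereas 8 markers of thalamus and midbrain summed to 2.10 to 16.0 TPM. The sum of 12 ventral forebrain markers ranged from 143 TPM in AVP male 1 to 275 TPM in AVP male 8. Choroid plexus markers varied from 7.29 to 2291 TPM between libraries. The library labelled saline male 12 had Xist at 266 TPM, where females ranged from 174 to 294 TPM, and 0.489 TPM over 4 Y-linked genes against 102 to 155 TPM in the other males. It was kept under its label. For the genes named at the start, log2 differences from fits that include males are also given without it, though not for every gene in every fit. Male values of the other gene lists and their single genes are given only with it. The same holds in males for shares of genes without overlap and for the other scalings. Whether these hold without it was not tested. Mitochondrial genes held 4.36% to 9.36% of a library's TPM, and depth could not be read from TPM.

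All 10 genes were expressed in all 15 libraries, with mean levels from 3.49 TPM for Gli3 to 1863 TPM for Fabp7. Fabp7, the brain fatty acid binding protein, had a mean of 1863 ± 313 TPM (SD, n = 15) and ranked 45 among all genes. Vim followed at 319 ± 62.5 TPM and Slc1a3, the glutamate transporter GLAST, at 67.9 ± 13.5 TPM. Sox2, a stem cell transcription factor, and Nes had means of 37.5 ± 4.09 and 36.5 ± 4.63 TPM. Hes5, Pax6 and Hopx lay between 20.3 and 21.9 TPM, Hes1 at 10.3 ± 2.93 TPM and Gli3, the zinc finger protein that mostly represses hedgehog targets, at 3.49 ± 0.73 TPM. Most steps of this order held in all 15 libraries. The exceptions were Sox2 above Nes, which held in 9 libraries, Hes5 above Pax6, in 6, and Pax6 above Hopx, in 9. These neighbours did not differ beyond their spread.

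**Figure D1:**
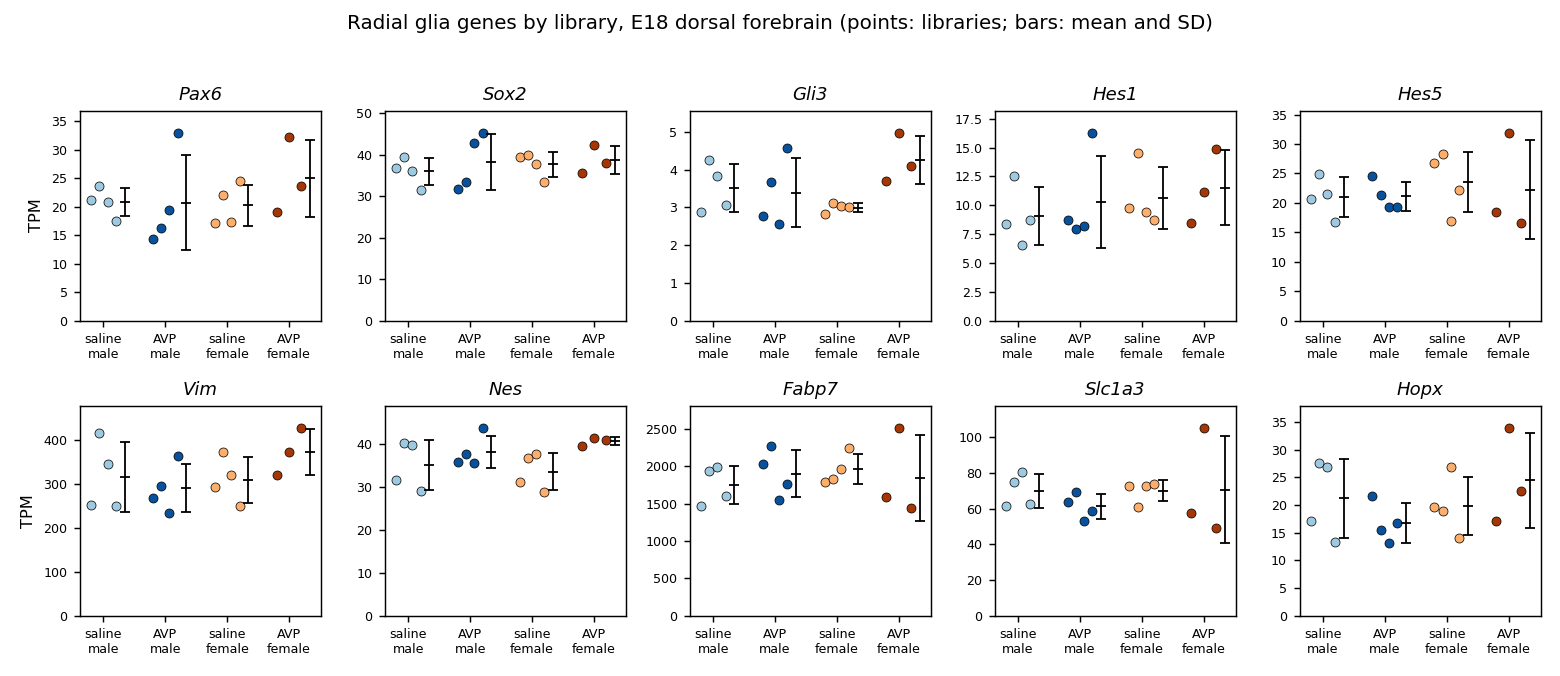
Level of each of the 10 genes in TPM (y axis, from 0) in the 15 libraries by group (x axis). Points are libraries, and the bars beside them are the group mean and SD. The 3 AVP females sit above the 4 saline females for Nes (39.5 to 41.3 against 28.8 to 37.5 TPM) and for Gli3 (3.70 to 4.97 against 2.81 to 3.12 TPM), and the groups overlap for the other genes.

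Variation between libraries was smallest for Sox2, with a coefficient of variation of 10.9%, and Nes, 12.7%, and largest for Hopx, 30.3%, Hes1, 28.5%, and Pax6, 25.2%. Single libraries reached the top for several genes. AVP female 10 held the highest level of Fabp7, Slc1a3, Hes5, Hopx and Gli3, and AVP male 9 that of Sox2, Nes, Pax6 and Hes1. AVP female 11 held the highest Vim and the lowest Fabp7, Slc1a3 and Hes5.

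The question of each comparison was whether maternal AVP altered these genes in the dorsal forebrain of one sex. In females, Nes and Gli3 separated the groups and no gene passed the adjusted threshold. Values were compared as log2(TPM + 0.5) by limma's two-sided test over all genes that reached 1 TPM in 50% or more of the libraries of a sex, with Benjamini-Hochberg adjustment and a threshold of 0.05. This scale slightly understates differences of low genes such as Gli3.

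Nes encodes nestin, the intermediate filament protein of neural stem cells, also made by growing endothelium. Its level was 39.5, 41.3 and 40.8 TPM in AVP females 3, 10 and 11, and 31.0, 36.6, 37.5 and 28.8 TPM in saline females 6, 7, 14 and 15. The AVP females that the study kept lay close together, above every saline female. The ratio of mean TPM was 1.21, and the log2 difference was 0.28 (SE 0.12, 95% interval 0.01 to 0.55) with an unadjusted p of 0.0454 and an adjusted p of 0.999 by limma. Gli3 was at 3.70, 4.97 and 4.11 TPM in the same AVP females and at 2.81, 3.12, 3.04 and 3.01 TPM in the saline females. The saline females were almost level and every AVP female was above them, with AVP female 10 highest. The ratio of means was 1.42 and the log2 difference 0.44 (SE 0.17, 95% interval 0.04 to 0.83), with limma's unadjusted p of 0.0336 and adjusted p of 0.999. The exact two-sided permutation test gave 0.0571 for each gene, which is the smallest p that 3 against 4 libraries allow when the 1-sided share is doubled. Over all 15132 genes tested in females, 2.78% had every AVP library above every saline library and 2.77% every one below, against 2 and 0 of the 10 radial glia genes.

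Both differences kept their direction without any 1 library. The log2 difference ranged from 0.21 to 0.34 for Nes and from 0.33 to 0.52 for Gli3. Library numbers fell into runs of 1 to 8 and 13 to 20. Within the first run, with 1 AVP and 2 saline females, the log2 differences were 0.23 for Nes and 0.28 for Gli3. Within the second, with 2 against 2, they were 0.32 and 0.51.

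Vim, Pax6 and Hopx had log2 differences of the size of Nes in females but overlapped between groups. Vimentin, the other filament protein, was at 321, 372 and 427 TPM in AVP females and 293, 374, 320 and 250 TPM in saline females, a log2 difference of 0.28 (SE 0.15). For Vim, AVP female 11 alone exceeded all saline females. Pax6, the paired box factor of cortical progenitors, was at 18.97, 32.3 and 23.7 TPM against 17.1, 22.0, 17.3 and 24.5 TPM, also 0.28 (SE 0.20). AVP female 10 was the only library above all saline females, and without it the difference was 0.08. Hopx, a homeodomain-only protein used as a marker of outer radial glia, was at 17.1, 33.8 and 22.5 TPM against 19.6, 18.98, 26.8 and 14.03 TPM, 0.28 (SE 0.27), and 0.02 without AVP female 10. The adjusted p of all 3 was 0.999 by limma. Within the first run of library numbers Vim, Pax6 and Hopx were at -0.04, -0.03 and -0.17, and within the second at 0.49, 0.42 and 0.50, so the values over all females describe neither run. Hes1, at 0.10 over all females, was at -0.47 and 0.48 in the runs, and Sox2, at 0.04, was at -0.15 and 0.17.

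The glial genes and Hes5 had values below 0 in females, with wide intervals. Fabp7 was at 1586, 2504 and 1439 TPM in AVP females and 1794, 1834, 1963 and 2242 TPM in saline females. AVP females thus held both the highest and the lowest levels. Slc1a3 was at 57.7, 105 and 49.4 TPM against 72.6, 61.3, 72.9 and 73.9 TPM, with the same order of AVP females. Their log2 differences were -0.13 (95% interval -0.55 to 0.30) and -0.06 (-0.60 to 0.47), and that of Hes5 was -0.11 (-0.70 to 0.47). Without AVP female 10 these became -0.37, -0.39 and -0.40, and limma's adjusted p did not fall below 0.05. In the first run Hes5 was at -0.57 and in the second at 0.24, while Fabp7 was at -0.19 and -0.14 and Slc1a3 at -0.21 and -0.03.

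**Figure D2:**
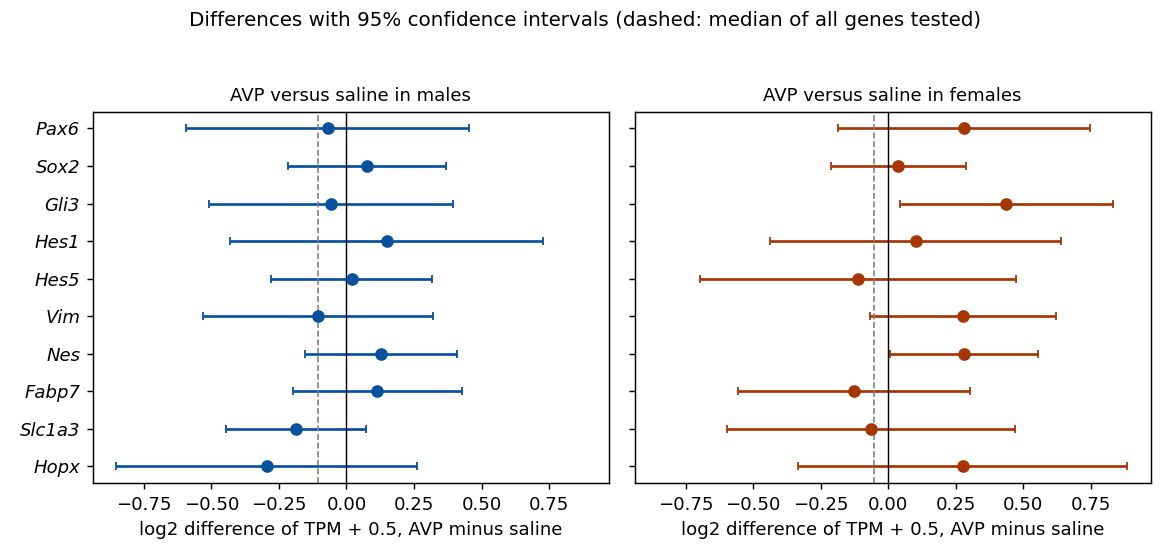
Difference between AVP and saline libraries on the log2(TPM + 0.5) scale (x axis) for the 10 genes (y axis), in males (left) and females (right). Points are the estimates, bars their 95% confidence intervals and the dashed line the median of all genes tested, -0.10 in males and -0.05 in females. The intervals of Nes and Gli3 in females lie above 0, and all others include 0.

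Over all genes, limma called 0% in females at the adjusted threshold, 0 of 15132, and 4.51% had an unadjusted p under 0.05. None of the 10 genes was called, and Nes and Gli3 were the 2 with an unadjusted p under 0.05. In AVP females, 7 of the 10 were higher and 3 lower, where 36.9% of all genes tested were higher. Their median log2 difference was 0.19 against -0.05 over all genes tested. In the first run, with 1 AVP female, Nes and Gli3 were higher and the other 8 lower, so the count did not hold within it.

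In males none of the 10 genes separated the groups. Over all 15271 genes, limma called 1, or 0.00655%, the microRNA gene Mir6392, which was lower in AVP males, and 13.5% had an unadjusted p under 0.05. None of the 10 was called or had an unadjusted p under 0.05. Every AVP male lay above every saline male for 0.733% of genes and below for 6.54%, and for 0 and 0 of the 10. The male groups thus differed downward over many genes, with a median log2 difference of -0.10. Scaling by median of ratios brought that median to -0.01 and quantile normalization to 0.02. The 10 genes had a median of -0.02, with 5 higher and 5 lower, where 26.4% of all genes were higher. Under either of the other scalings 7 of the 10 were higher and 3 lower.

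The values furthest from 0 in males were those of Hopx and Slc1a3. Hopx was at 21.6, 15.4, 13.1 and 16.7 TPM in AVP males 1, 2, 8 and 9 and at 17.1, 27.5, 26.9 and 13.3 TPM in saline males 4, 5, 12 and 13. The saline males split into a high and a low pair. AVP male 1 lay between the pairs, and the other 3 AVP males lay below the higher of the low pair. Its log2 difference was -0.30 (95% interval -0.85 to 0.26), or -0.19 relative to the median of all genes, and -0.16 without saline male 12. Slc1a3 was at 63.9, 69.6, 53.3 and 58.5 TPM against 61.7, 74.8, 80.8 and 62.7 TPM, a difference of -0.19 (-0.45 to 0.07), -0.08 relative to the median, and -0.12 without saline male 12. For Slc1a3, 2 of the AVP males were below all saline males. The adjusted p by limma was 0.606 for Hopx and 0.482 for Slc1a3.

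Nes was at 35.7, 37.5, 35.5 and 43.5 TPM in AVP males and 31.4, 40.1, 39.7 and 28.9 TPM in saline males, a log2 difference of 0.13 (-0.15 to 0.41), and 0.19 without saline male 12. Gli3 was at 2.78, 3.68, 2.55 and 4.56 TPM against 2.89, 4.25, 3.84 and 3.06 TPM, a difference of -0.06 (-0.51 to 0.39). Both genes overlapped between the groups. Vim was at 268, 296, 235 and 364 TPM against 253, 416, 346 and 250 TPM, -0.10 (-0.53 to 0.32), which is at the median of all genes. Fabp7 had a difference of 0.11 (-0.20 to 0.43) and Hes5 of 0.02 (-0.28 to 0.32). Without saline male 12, Fabp7 was at 0.18, Vim at -0.05, Gli3 at -0.02 and Hes5 at 0.03, and no adjusted p by limma was below 0.05.

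Pax6, Sox2 and Hes1 had opposite differences in the runs of library numbers. Pax6 was at 14.2 and 16.2 TPM in AVP males 1 and 2 and at 21.1 and 23.5 TPM in saline males 4 and 5, a log2 difference of -0.54. In the second run it was at 19.4 and 32.9 TPM in AVP males 8 and 9 and at 20.8 and 17.5 TPM in saline males 12 and 13, a difference of 0.40. Sox2 went from -0.23 in the first run to 0.38 in the second, and Hes1 from -0.29 to 0.58. Fabp7 went the other way, from 0.34 to -0.11. Over all 8 males Pax6 had a log2 difference of -0.07 (-0.60 to 0.46), Sox2 of 0.08 (-0.22 to 0.37) and Hes1 of 0.15 (-0.43 to 0.73), and these values do not describe either run. Without AVP male 9, the male highest in all 3 genes, they became -0.31, -0.01 and -0.08. Without saline male 12, Hes1 was at 0.01, Pax6 at -0.07 and Sox2 at 0.08.

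Whether the sexes responded differently was tested as an interaction over all 15 libraries. Limma called 0% of 15078 genes, with 4.14% at an unadjusted p under 0.05, and 0 of the 10 radial glia genes by either. The largest interaction values were 0.57 for Hopx (SE 0.39, 95% interval -0.27 to 1.41), 0.50 for Gli3 (SE 0.26, -0.05 to 1.04) and 0.38 for Vim (SE 0.26, -0.18 to 0.95). A value above 0 means a higher AVP minus saline difference in females than in males. Gli3 had an unadjusted p of 0.0724 and an adjusted p of 0.896 by limma. The separation of Gli3 in females and not in males was therefore not shown to differ between the sexes. Without saline male 12 the values were 0.44 for Hopx, 0.45 for Gli3 and 0.33 for Vim, and that of Hes1 went from -0.05 to 0.09.

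With both sexes in 1 fit and sex as a term, Nes had the log2 difference furthest from 0 among the 10 genes, 0.20 (SE 0.09, 95% interval 0.01 to 0.38), with an unadjusted p of 0.0366 and an adjusted p of 0.469 by limma. It was the only one of the 10 with an unadjusted p under 0.05, where 10.4% of all genes had one and 0% of 15078 genes were called. Gli3 followed at 0.17 (-0.12 to 0.47) and Slc1a3 at -0.13 (-0.41 to 0.15). The median of all genes in this fit was -0.08, and 26.1% of them were higher. Relative to that median, Nes was at 0.28, Gli3 at 0.25, Hes1 at 0.20 and Slc1a3 at -0.05. Leaving out AVP female 10 moved Slc1a3 to -0.27 with an adjusted p of 0.0933 by limma. Sox2 had the narrowest interval, 0.06 (-0.12 to 0.24), and Fabp7 was at 0.00 (-0.26 to 0.26). Without saline male 12, Nes was at 0.24, with an adjusted p of 0.659 by limma, Gli3 at 0.21, Slc1a3 at -0.09, Sox2 at 0.06 and Fabp7 at 0.03, and Hopx went from -0.03 to 0.06.

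No difference between females and males passed the threshold in these genes. With treatment as a term, limma called 0% of 15078 genes and 1.39% had an unadjusted p under 0.05, with 0 of the 10 by either. Of Xist and the Y-linked genes only Xist reached the filter, and at a log2 difference of 6.84 it was not called. With saline male 12 counted as a male, this fit could therefore not decide whether the sexes differ. The 10 log2 differences, female minus male, ran from 0.01 for Nes (-0.17 to 0.20) to 0.21 for Hes1 (-0.17 to 0.59). Without saline male 12 they ran from 0.05 for Sox2 and Nes to 0.29 for Hopx, with Hes1 at 0.14, and no adjusted p by limma was below 0.05.

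The embryonic dorsal forebrain holds other cells that make some of these proteins. Vimentin and nestin are also made by endothelial cells, pericytes and meningeal fibroblasts. In a sample of whole tissue, fewer cells of a type and less RNA per cell cannot be told apart. In females, 12 meningeal fibroblast markers summed to 409 to 550 TPM in AVP and 254 to 298 TPM in saline libraries, and 9 of 11 tested had every AVP female above every saline female, with values of 1.11 for the matrix protein gene Postn and 0.97 for Dcn on the log2 scale. Endothelial markers summed to 263 to 282 TPM against 163 to 246 TPM, with 4 of 10 apart, Cdh5 (0.59) and Tek (0.64) among them. Mural cell markers summed to 101 to 108 TPM against 69.3 to 92.9 TPM, with 2 of 8 apart, Rgs5 and Pdgfrb. Markers of microglia and border macrophages summed to 87.8 to 95.8 TPM against 42.5 to 79.2 TPM, with 4 of 9 apart. Over all genes tested, 2.78% were apart in this direction. Each of these 4 sums separated the female groups, and none of the endothelial or mural markers was at 0 in all libraries of a group. In males the sums overlapped, for instance 207 to 241 TPM against 187 to 304 TPM for endothelium. Other lists also leaned one way in females, with overlapping sums, where 36.9% of all genes tested were higher. All 7 oligodendrocyte precursor genes tested were lower in AVP females (median log2 difference -0.59), with Olig1 and Olig2 below without overlap against 2.77% of all genes, and all 10 ventral forebrain genes tested were lower (-0.26). All 8 dorsal forebrain genes (0.12), all 5 choroid plexus genes tested (1.71) and all 5 red blood cell genes tested (1.04) were higher. The 8 thalamus and midbrain markers had low sums that did not overlap, 7.63 to 16.0 TPM in AVP and 4.16 to 7.23 TPM in saline females. In each female group 4 of these 8 had a mean under 1 TPM. Of the 3 tested only Otx2 was apart, and it is also on the choroid plexus list. Otx2 was at 3.40 to 6.51 TPM in AVP and 0.395 to 2.54 TPM in saline females. In AVP female 3 it held 6.51 of the 10.2 TPM. These sums therefore do not show more thalamus or midbrain in AVP females. Of 6 astrocyte genes tested 2 were higher and 4 lower (-0.38). None of these markers passed the adjusted threshold, and their part in the values of Nes, Gli3 and Vim was not tested.

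Markers of dividing cells separated the female groups as well. The sum over 12 genes was 462 to 559 TPM in AVP females and 371 to 460 TPM in saline females. All 12 had values above 0, where 36.9% of all genes did, with a median log2 difference of 0.32. Of the 12, 3 did not overlap, the cyclin gene Ccnd2, the replication helicase gene Mcm2 and the mitotic kinase gene Cdk1, at 0.41, 0.30 and 0.51, against 2.78% of all genes. In males the sums were 356 to 553 against 384 to 485 TPM. The 10 intermediate progenitor genes summed to 188 to 255 TPM in AVP females and 165 to 220 TPM in saline females, which overlapped. Of the 9 tested, 7 were higher and 2 lower in AVP females, with a median log2 difference of 0.14. With median-of-ratios scaling or quantile normalization all 9 were higher. None of the 9 was called or free of overlap. In males 3 were higher and 6 lower.

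**Figure D3:**
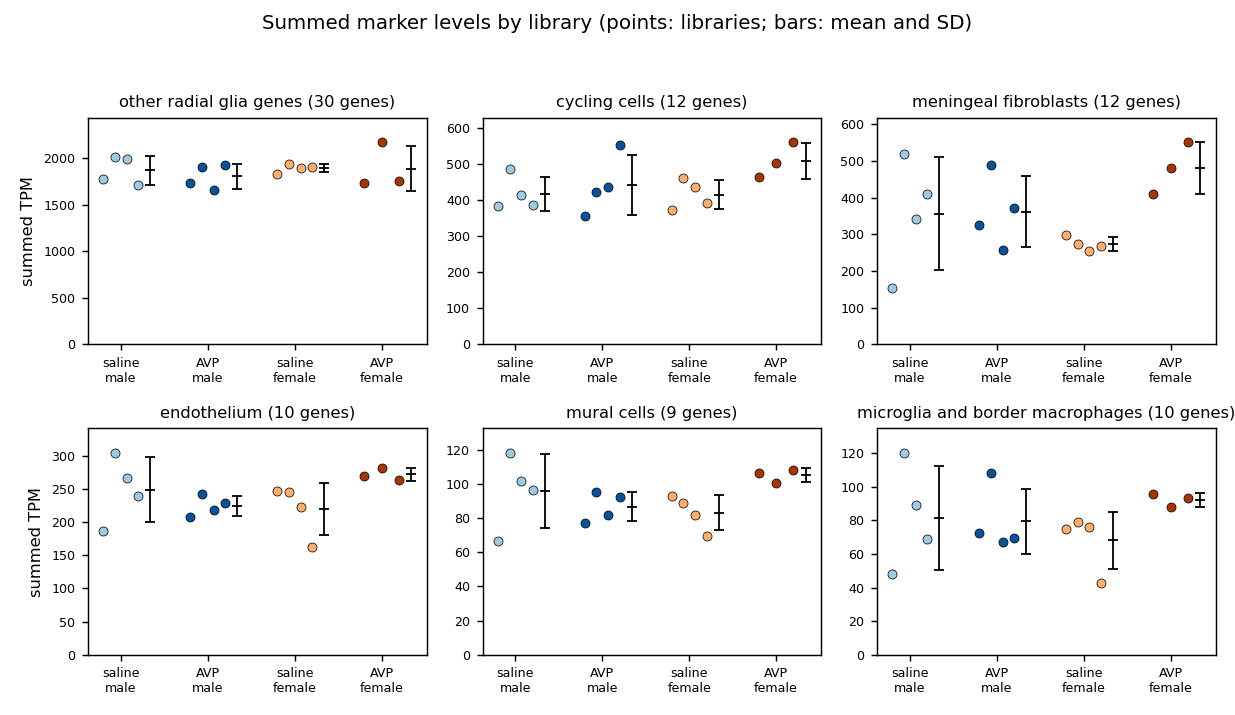
Summed TPM (y axis, from 0) of 6 marker lists in the 15 libraries by group (x axis). Points are libraries, and bars are the group mean and SD. AVP females lie above saline females for cycling cells, meningeal fibroblasts, endothelium, mural cells and macrophages, and on both sides of them for the 30 other radial glia genes.

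The sum of 30 further radial glia genes did not separate the groups. It was 1732 to 2167 TPM in AVP females and 1832 to 1933 TPM in saline females, and 1658 to 1928 TPM against 1704 to 2005 TPM in males. In females 12 were higher and 18 lower, where 36.9% of all genes were higher, and none was called or free of overlap. The median log2 difference was -0.05, equal to that of all genes. The secreted protein gene Dkk3 had the smallest unadjusted p, at -0.28. In males 8 were higher and 22 lower, where 26.4% of all genes were higher, with a median of -0.10, also that of all genes. With median-of-ratios scaling 15 of the 30 were higher and 15 lower. In males 1 of the 30 lay below without overlap, a share smaller than the 6.54% of all genes. It was Sox9, a regulator of glial fate, at 6.65 to 7.56 TPM in AVP males and 7.60 to 10.3 TPM in saline males, with a log2 difference of -0.30 and an adjusted p of 0.331 by limma.

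The Notch pathway upstream of Hes1 and Hes5 had 27 genes in the list, all tested. In males 2 were higher and 25 lower in AVP libraries, where 26.4% of all genes were higher, and none was called. The median log2 difference was -0.20 against -0.10 for all genes. With median-of-ratios scaling 20 were lower, with a median of -0.10 against -0.01 for all genes. The ligand gene Jag2 was at 23.9 to 41.6 TPM in AVP males and 44.6 to 60.2 TPM in saline males, a difference of -0.65 with an adjusted p of 0.304 by limma. Of the 27, 2 had every AVP male below every saline male, Jag2 among them, where 6.54% of all genes lay below in this way. Hes5 at 0.02 and Hes1 at 0.15 had values above 0 in the same males. In females 16 were higher and 11 lower, where 36.9% of all genes were higher, with a median of 0.07. The ligand gene Jag1 was the only one of the 27 free of overlap, where 2.78% of all genes lay above in this way. It was at 5.62 to 8.17 TPM in AVP and 4.46 to 5.40 TPM in saline females.

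The hedgehog pathway, which acts through Gli3, had 13 genes in the list, of which 11 were tested. In females the co-receptor genes Cdon and Gas1 separated the groups as Gli3 did, 2 of 11 against 2.78% of all genes, with log2 differences of 0.28 and 0.27 and adjusted p of 0.999 by limma for each. Cdon was at 14.02 to 14.7 TPM in AVP females and 9.74 to 12.7 TPM in saline females, and Gas1 at 10.8 to 14.5 TPM against 9.56 to 10.6 TPM. Of the 11, 6 were higher and 5 lower, with a median of 0.02, where 36.9% of all genes were higher. In males all 11 tested were lower, where 26.4% of all genes were higher, with a median of -0.18 against -0.10 for all genes. With median-of-ratios scaling 7 of the 11 were lower. None was called.

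Across libraries the 10 genes varied together in part. Pearson's r of log2(TPM + 0.5) was computed over 15 libraries for all 45 pairs, with permutation tests of 100000 resamples and Benjamini-Hochberg adjustment over the pairs. Of these, 42 were positive, the median r was 0.41, and 8 had an adjusted permutation p under 0.05, all positive. Libraries share their groups, their unknown litters and the scaling to 1 total, which enter each r.

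Vim, Nes and Gli3 formed the closest group of 3. Pearson's r was 0.79 for Vim and Gli3 (rho 0.80), 0.78 for Vim and Nes (rho 0.82) and 0.75 for Nes and Gli3 (rho 0.84), with adjusted permutation p of 0.0111, 0.0111 and 0.017. With group means removed r was 0.79, 0.89 and 0.70, and without the 2 libraries farthest from the median of the first gene it was 0.74, 0.83 and 0.83. The positive relation was thus present without the group means and without those 2 libraries. Within the 7 libraries of the first run of numbers r was 0.70, 0.68 and 0.83, and within the 8 of the second 0.85, 0.83 and 0.71.

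Fabp7 and Slc1a3 were the closest pair, with r of 0.83 and rho of 0.80, and an adjusted permutation p of 0.0018. The value was 0.93 with group means removed, 0.69 without the 2 farthest libraries, 0.76 without AVP female 10, and 0.55 and 0.94 within the first and second run. Neither followed the filament genes, since Fabp7 had r of 0.11 with Vim and 0.11 with Nes, and Slc1a3 0.14 and 0.04. Gli3 was less clearly apart, with r of 0.29 with Fabp7 and 0.34 with Slc1a3, and 0.54 and 0.48 with group means removed. Hes5 was nearer to Slc1a3 (r = 0.63, adjusted permutation p = 0.0554) than to Hes1 (r = 0.13). Without AVP female 10 these values were 0.42 and 0.08. A difference between these values of r was not tested.

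Hes1 followed Vim, with r of 0.68 (rho 0.62, adjusted permutation p of 0.0375), and 0.57 without the 2 farthest libraries. Hopx followed Vim with r of 0.68 (rho 0.69, adjusted permutation p of 0.0375), and 0.64 without them. Pax6 followed Gli3 with r of 0.70 (rho 0.61, adjusted permutation p of 0.0279) and Sox2 with r of 0.66 (rho 0.55, adjusted permutation p of 0.0391). Both values of Pax6 fell to 0.41 without the 2 libraries farthest in Pax6, a step that also narrows the range of Pax6. With group means removed both were 0.69. Without AVP female 10 they were 0.60 with Gli3 and 0.61 with Sox2. How far these relations rest on the 2 libraries was not tested. Within the runs these 4 pairs had r between 0.45 and 0.81. The adjusted Spearman p of the pairs of Pax6, and of Hes1 with Vim, was above 0.05.

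**Figure D4:**
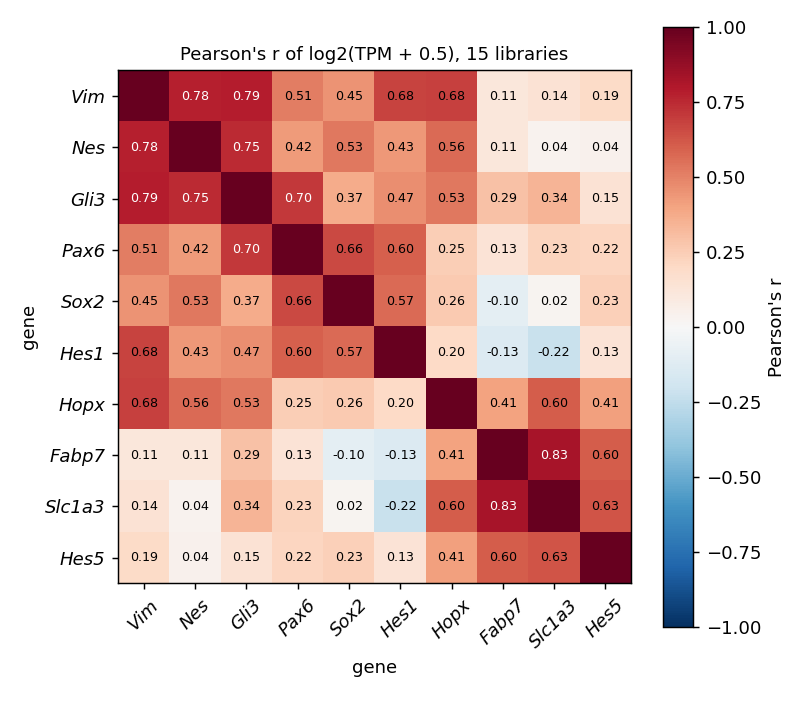
Pearson's r of log2(TPM + 0.5) over 15 libraries for each pair of the 10 genes (both axes), on a colour scale from -1 to 1. Vim, Nes and Gli3 stand together at 0.75 to 0.79, Fabp7 and Slc1a3 at 0.83, and the cells joining the 2 groups lie between 0.04 and 0.34.

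The genes most like each of the 10 were ranked by Pearson's r over the 15 libraries with group means removed, among 11588 genes with a mean of at least 5 TPM, as a description without a test. For Slc1a3 they were Sema6a (0.98), Slc1a2 (0.96), the glutamate transporter GLT-1, and Vat1 (0.96). For Fabp7 they were Slc4a4 (0.98), a bicarbonate cotransporter, Pacsin2 (0.94) and Gdf10 (0.92). Hes5 was nearest to Necab2 (0.91), Bcan (0.90), which encodes the matrix proteoglycan brevican, and Syt3 (0.89). Hopx was nearest to the tetraspanin gene Cd9 (0.95), Sema3c (0.93) and Crym (0.92).

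Progenitor regulators had other neighbours. For Hes1 they were Trmt112 (0.90) and the cell division genes Cdc20 (0.89) and Rrm2 (0.89). For Pax6 they were Mrps9 (0.95), Psrc1 (0.95) and the histone chaperone gene Ssrp1 (0.94), for Sox2 Tmed4 (0.90), Gm24586 (0.89) and Ccz1 (0.89), and for Gli3 Spg20 (0.94), Rnd2 (0.92) and Lin54 (0.91). Nes was nearest to the thrombin receptor gene F2r (0.93) and to Lmo1 (0.91). Vim was nearest to Mfap4 (0.92), a protein of the extracellular matrix, Clic1 (0.91) and BC051226 (0.90). No neighbour was shared between any of the 10.

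The transcripts behind a gene's level differed in kind. Sox2 had 1 transcript, and Nes, Fabp7, Slc1a3, Gli3 and Hes5 had over 92% of their TPM on average in 1 protein-coding transcript. Nes-201 held 98.8% and Gli3-201 97.8%, so the levels of the genes that separated the female groups were those of 1 transcript each. Vim was split among the coding Vim-201, with 46.1% ± 3.65 (SD, n = 15), the short retained-intron transcript Vim-203 of 535 nt, with 36.9% ± 4.31, and the coding Vim-206, with 16.7% ± 4.56. Vim-206 was lowest in AVP female 11 at 6.54% and highest in saline male 4 at 24.1%. In females the log2 difference of Vim was 0.24 over coding transcripts and 0.33 over Vim-201.

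Hes1-201, the 1 coding transcript of Hes1, held 72.8% ± 8.21, from 57.2% in saline female 7 to 88.5% in AVP male 2, and the retained-intron Hes1-203 held 12.5%. The high Hes1 of saline female 7 thus had the smallest coding share, and the log2 difference in females was 0.24 over the coding transcript against 0.10 for the whole gene. Pax6 was spread over 26 transcripts, with 44.8% ± 7.82 in Pax6-204. Over Pax6-204 alone the log2 difference was 0.55 in females (adjusted p of 0.999 by limma) and 0.01 in males. Hopx-202 held 88.5% of Hopx. On the opposite strand, annotated exons of Gm20421 covered 31.8% of the exonic bases of Hes5, those of Hopxos 27.2% of Hopx and those of Gm6556 1.96% of Gli3, and no gene on the same strand shared exonic bases with any of the 10. The libraries were stranded, and the reads were assigned with strand.

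**Figure D5:**
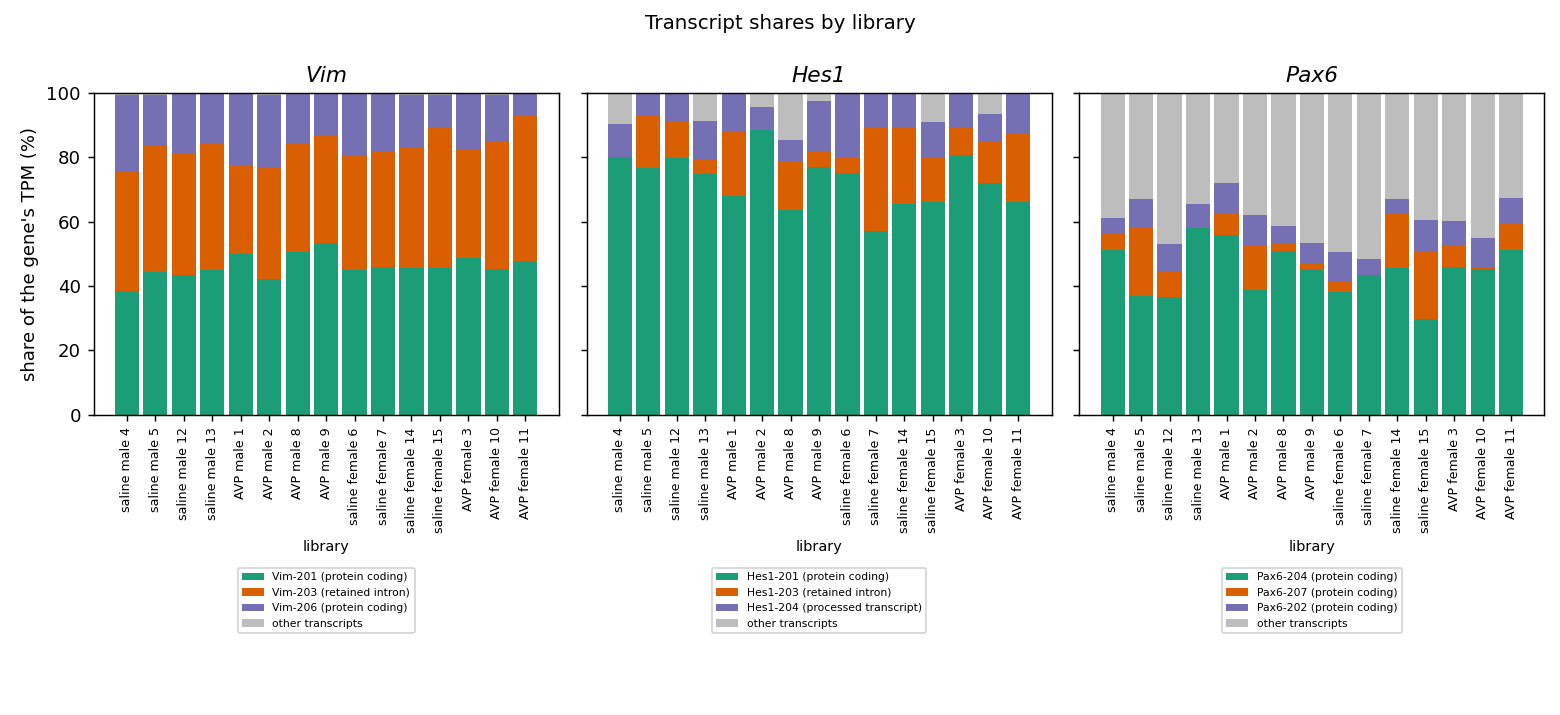
Share of a gene's TPM in percent (y axis, 0 to 100) held by its 3 most abundant transcripts and by the rest, in each of 15 libraries (x axis), for Vim, Hes1 and Pax6. Vim keeps 3 transcripts in all libraries, with Vim-203 between 27.3% and 45.3%, whereas Pax6-204 ranges from 29.8% to 57.9%.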

How the data were processed

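Stranded mRNA libraries (TruSeq) from total RNA were sequenced as paired-end reads. Per the labels and methods, the authors trimmed reads with Trim Galore 0.4.1, checked them with FastQC 0.5.2 and quantified them with Kallisto 0.43.1 against GENCODE M16 transcripts (GRCm38), with strand and bias correction. The deposited table holds TPM, which the authors' software corrects for transcript length and scales to a fixed total. It holds no counts, so depth is unknown and no counting interval is given. The study excluded 1 AVP female as an outlier of high variance, and it is not analysed here. The 133849 transcripts were summed to 53337 genes with GENCODE M21. Left out were 404 transcripts without a gene, at most 0.199% of a library's TPM.

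Genes that reached 1 TPM in 50% or more of the libraries compared were tested as log2(TPM + 0.5) by limma 3.58.1 (R 4.3.3) with a mean-variance trend. AVP was compared with saline in each sex, with sex as a term, and by interaction, and females with males with treatment as a term. Single genes had exact permutation tests (scipy 1.17.1). Scripts were tested on simulated data. The 10 genes and the 19 other lists were chosen with earlier results of these data known. Genes named beyond the 10 were any past the threshold, at most 2 per list with the smallest p in each sex, 3 nearest in pattern to each of the 10, and, after their values were seen, genes behind counts of 5 or fewer. Some genes that this rule names are not reported here. Alternatives were other scalings, pseudocounts of 0.1 and 1, other filters, limma without the trend, library runs as a covariate, 1 fit of all 15 libraries, an adjusted p of 0.1, the most abundant transcript, and leaving out each library. Coding transcripts only was chosen after seeing the data.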

Additional observations from a re-analysis of the deposited data

Results flagged for a closer look

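Within each group of 4 libraries, a library was singled out where its gap to the nearest other library was above Dixon's 95% critical value for the group's range. This was asked of 30 sets of values, of which chance gives about 1.5, and it singled out 2. Hes1 was at 16.2 TPM in AVP male 9 against 7.98 to 8.71 TPM in the other AVP males. Slc1a3 was at 61.3 TPM in saline female 7 against 72.6 to 73.9 TPM in the other saline females. No cause was tested for either.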

How the results depend on the processing

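Of 1115 values of the 10 genes under the alternatives, 0 had an adjusted p under 0.05 by limma (the smallest was 0.0933), so no call changed, and 74 changed sign. No cause of these changes was tested. The differences of Nes and Gli3 in females were above 0 under every alternative run, though Gli3 had no value with a mean of at least 5 TPM. With 3 or 4 libraries a group and unknown depth, small differences could not be detected. No paired analysis was run, because AVP and saline embryos came from different dams and litter mates of the 2 sexes are not tied to the libraries.

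The log2 differences that changed sign were, with quantile normalization, 0.060 for Pax6 and 0.10 for Gli3 in males, 0.021 for Slc1a3 in females, and 0.055 for Hes5, -0.066 for Fabp7 and 0.059 for Hopx with sex as a term. With median-of-ratios scaling they were 0.031 for Pax6 and 0.032 for Gli3 in males, and 0.029 for Hes5 and 0.039 for Hopx with sex as a term. Over the most abundant transcript they were 0.0068 for Pax6 and 0.087 for Vim in males and 0.16 for Hes1 in the interaction, and over coding transcripts 0.026 for Vim and 0.16 for Hes1.

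With 1 library left out, values that changed sign ranged in males from -0.31 to 0.080 for Pax6, -0.081 to 0.11 for Hes5, -0.19 to 0.049 for Gli3, -0.22 to 0.038 for Vim, -0.0096 to 0.16 for Sox2 and -0.085 to 0.31 for Hes1. In females they ranged from -0.39 to 0.15 for Slc1a3, -0.029 to 0.094 for Sox2, -0.096 to 0.30 for Hes1, -0.40 to 0.068 for Hes5 and -0.37 to 0.031 for Fabp7. In the interaction they ranged from -0.12 to 0.047 for Sox2, -0.24 to 0.19 for Hes1, -0.20 to 0.34 for Slc1a3 and -0.41 to 0.049 for Hes5. With sex as a term they ranged from -0.079 to 0.081 for Fabp7, -0.17 to 0.062 for Hopx, -0.15 to 0.039 for Hes5 and -0.016 to 0.18 for Pax6. Between the sexes they ranged from -0.026 to 0.052 for Nes, -0.029 to 0.11 for Gli3, -0.015 to 0.17 for Hes5, -0.024 to 0.14 for Fabp7 and -0.071 to 0.15 for Slc1a3.

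Over all genes, the 1 call in males became 0 with a pseudocount of 1, a mean of at least 5 TPM, library runs as a covariate or 1 fit of all 15 libraries, 2 without the trend, and 0 to 6 with 1 library left out, 6 of them without AVP male 2. The count of 0 in females became 0 to 6 with 1 library left out, 6 of them without saline female 15, and 0 to 1 in the interaction and with sex as a term. Between the sexes it became 4 with a mean of at least 5 TPM, 1 at an adjusted p of 0.1, and 0 to 7 with 1 library left out, 7 of them without saline male 12 or without saline female 6.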
